A study of Mus musculus with 16 samples.

Results

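The mitosis and G2/M genes described here are 39 genes whose products carry a cell from the end of DNA replication through division. They were chosen by name, and the rule used no measured value, although earlier results of these data were known at the time. All 39 had a row in the table of 46078 genes. All 39 also passed the filter on low counts and were among the 15096 genes tested. RNA was sequenced from mouse spinal cord lesions in 16 libraries, 4 in each of 4 groups. The groups were Exercise day 10, Control day 10, Exercise day 5 and Control day 5. Every animal was of the C57BL/6 strain, was 8 to 12 weeks old by its label, and received lysolecithin, a lipid that strips myelin from axons. Exercise animals had free access to a running wheel, and the wheel of Control animals was locked. The lesion was cut out of frozen cord by laser microdissection, so each library mixes all cell types of the lesion. The labels give no uninjured group and no sex, and they do not say that each library came from a separate animal. The p-values therefore measure the spread between these libraries, which may be partly technical.

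Entry into mitosis is driven by the kinase Cdk1 bound to cyclin A or cyclin B. Plk1 and the Aurora kinases then build the spindle, kinetochore proteins attach chromosomes to it, and a checkpoint holds the cell until every chromosome is attached. Cdc20 and the anaphase-promoting complex, a ubiquitin ligase, then have cyclin B destroyed, and the cell divides. Most of these genes are transcribed only late in the cycle. Their promoters are bound by complexes that contain the MuvB core with Foxm1 or B-Myb, which contact a short element called CHR, and by the CCAAT-binding factor NF-Y. In demyelinated cord, oligodendrocyte precursors, microglia and incoming macrophages are known to divide. In bulk lesion RNA, fewer dividing cells and less mRNA of these genes per cell cannot be told apart.

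RefSeq promoter windows (GRCm38.p6), running from 250 bases before to 50 bases after the start of transcription, were available for 33 of the 39 members. Ect2 and Prc1 had more than 1 start, which gave 35 windows. Aurkb, Smc4, Ccna2, Tpx2, Kif20a and Foxm1 were not matched. The letters TTTGAA or TTCGAA, the core of the CHR element, were searched on both strands. They stood in 30 of the 35 member windows (85.7%), against 6316 of all 32851 windows (19.2%). CCAAT, also searched on both strands, stood in 29 member windows (82.9%), against 37.4% of all windows. At least 2 copies of CCAAT were found in 57.1% of member windows, against 11.7% of all windows. Both elements occurred together in 27 member windows (77.1%), against 7.52% of all windows. A CCAAT match can share letters with a match of either element, as in the CCAATTGG of Ube2c. These shares are descriptions of the letters and show no binding.

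The windows below are shown because their genes carry the results. The members Ccnb2, Cdca3 and Ckap2l had the smallest p-values for the fall by day 10 in Control, Mki67 is the usual marker of cycling cells, Birc5 fell furthest in Control lesions and Anln fell least. Capitals mark the 2 elements in either orientation, so TTCAAA and ATTGG are the same elements on the other strand. Each sequence is written 5′ to 3′ along the gene's own strand.
Ccnb2, chr9:70421505-70421804, minus strand: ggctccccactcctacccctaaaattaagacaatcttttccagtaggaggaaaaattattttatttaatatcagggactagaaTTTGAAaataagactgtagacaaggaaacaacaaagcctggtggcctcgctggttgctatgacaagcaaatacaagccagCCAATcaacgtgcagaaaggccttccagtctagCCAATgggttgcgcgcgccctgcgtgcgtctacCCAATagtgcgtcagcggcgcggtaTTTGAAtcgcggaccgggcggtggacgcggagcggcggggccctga
Cdca3, chr6:124829926-124830225, plus strand: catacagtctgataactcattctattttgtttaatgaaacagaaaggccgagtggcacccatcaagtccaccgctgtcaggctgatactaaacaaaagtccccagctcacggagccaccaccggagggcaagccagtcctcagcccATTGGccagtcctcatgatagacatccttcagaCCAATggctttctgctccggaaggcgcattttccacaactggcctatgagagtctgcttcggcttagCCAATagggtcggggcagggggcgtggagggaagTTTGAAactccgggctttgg
Ckap2l, chr2:129297163-129297462, minus strand: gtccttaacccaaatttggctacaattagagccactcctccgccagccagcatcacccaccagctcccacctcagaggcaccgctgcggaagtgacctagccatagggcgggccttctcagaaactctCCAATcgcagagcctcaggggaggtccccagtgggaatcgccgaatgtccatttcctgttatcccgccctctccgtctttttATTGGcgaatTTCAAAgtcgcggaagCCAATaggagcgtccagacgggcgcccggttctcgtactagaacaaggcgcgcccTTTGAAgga
Mki67, chr7:135716330-135716629, minus strand: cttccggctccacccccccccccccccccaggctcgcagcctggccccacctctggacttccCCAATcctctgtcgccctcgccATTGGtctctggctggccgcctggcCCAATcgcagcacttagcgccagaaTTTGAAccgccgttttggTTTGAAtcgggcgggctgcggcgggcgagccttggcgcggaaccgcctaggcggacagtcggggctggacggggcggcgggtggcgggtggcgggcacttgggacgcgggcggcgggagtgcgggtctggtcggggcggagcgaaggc
Anln, chr9:22389157-22389456, minus strand: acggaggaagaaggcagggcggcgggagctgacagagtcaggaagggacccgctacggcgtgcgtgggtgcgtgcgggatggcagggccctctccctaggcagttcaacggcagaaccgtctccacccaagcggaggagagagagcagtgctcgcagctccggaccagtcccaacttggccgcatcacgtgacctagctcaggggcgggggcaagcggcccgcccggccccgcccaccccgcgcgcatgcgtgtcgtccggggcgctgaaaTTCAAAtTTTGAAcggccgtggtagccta
Birc5, chr11:117848987-117849286, plus strand: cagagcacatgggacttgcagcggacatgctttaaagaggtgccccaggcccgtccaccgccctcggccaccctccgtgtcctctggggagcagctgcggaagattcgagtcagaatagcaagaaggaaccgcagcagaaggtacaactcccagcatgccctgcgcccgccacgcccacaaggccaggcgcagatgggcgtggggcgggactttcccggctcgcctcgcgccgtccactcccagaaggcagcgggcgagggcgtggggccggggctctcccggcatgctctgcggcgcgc
Ccnb2 has 3 CCAAT copies at positions -87, -54 and -21 from the start, followed by TTTGAA at 5 and preceded by another at -167. Cdca3 has CCAAT at -104 (on the other strand), -71 and -4, and 1 TTTGAA, at 31. Anln has 2 copies of the CHR letters and no CCAAT in its window. Birc5, which fell furthest in Control lesions, has neither element in the letters searched. The relation of these elements to the size of the fall was not tested.

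The libraries held 8.13 to 13.9 M counts. At day 5 depth separated the groups, with 8.13 to 10.9 M counts in Exercise libraries and 11.2 to 13.9 M in Control libraries. The share of counts from mt-Rnr2, a mitochondrial ribosomal RNA, separated them as well, at 10.9% to 12.9% in Exercise day 5 and 8.05% to 10.3% in Control day 5. At this depth no member was at 0 in any library, and the lowest count was 10, for Ndc80 in Control day 10 replicate 5. The libraries fit the labelled tissue in their myelin markers, with summed levels of 11200 to 28470 CPM for 10 genes of mature oligodendrocytes, while 7 neuronal markers summed to 95.4 to 810.0 CPM. CPM here is the count of a gene scaled to a common library size after TMM, a correction for differences in library composition. Where 4 values of 1 group are listed, they follow the replicate numbers, which are 13, 17, 18 and 19 in Exercise day 10, 2, 3, 4 and 5 in Control day 10, 1, 2, 7 and 12 in Exercise day 5, and 1, 2, 5 and 6 in Control day 5.

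The Exercise day 10 libraries spread widely for these genes, and replicate 17 had the highest summed level. Replicate 17 was the highest of its 4 libraries for 33 of 39 members and lay above every Control day 10 library for 33. The 39 members summed to 510.4, 1081, 671 and 804 CPM in the 4 Exercise day 10 libraries, against 624, 534, 739 and 707 CPM in the 4 Control day 10 libraries. Replicate 13 was the lowest of the Exercise day 10 group for 30 members and lay below every Control day 10 library for 17. In replicate 17 the 8 microglial markers summed to 13970 CPM, against 6535 to 9237 CPM in the other 3 Exercise day 10 libraries. Its 10 markers of mature oligodendrocytes summed to 12350 CPM, against 16140 to 28470 CPM in those 3 libraries. The part of these markers in its high mitotic level was not tested. The authors' deposited day 10 comparison leaves out replicate 17, and the results it moved most are given with and without it.

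**Figure D1:**
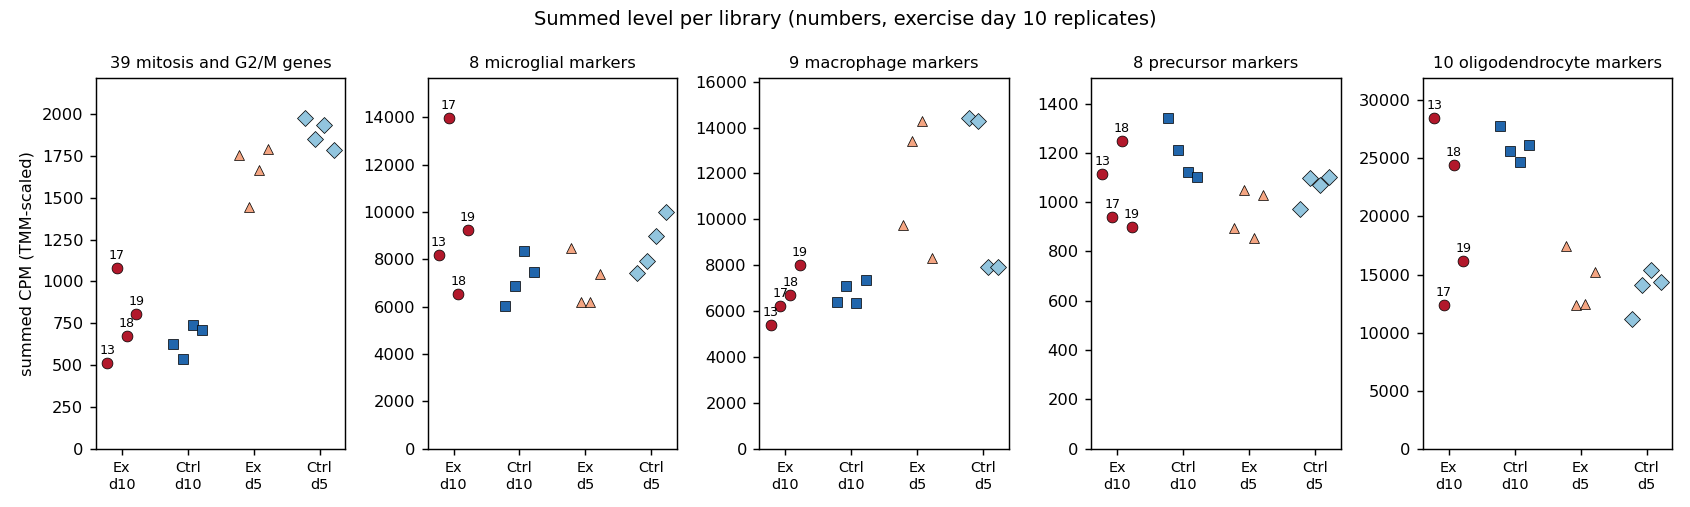
Summed TMM-scaled CPM per library for the 39 mitosis and G2/M genes and for marker genes of microglia, monocyte-derived macrophages, oligodendrocyte precursors and mature oligodendrocytes; each point is 1 library and the numbers name the Exercise day 10 replicates. All 8 day 10 libraries sit below all 8 day 5 libraries for the mitotic genes, and Exercise day 10 replicate 17, at 1081 CPM, is the highest of the day 10 libraries.

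Lesions at day 10 held much less mRNA of these genes than lesions at day 5, in both housing conditions. The summed level was 510.4 to 1081 CPM in Exercise day 10 and 1444 to 1790 CPM in Exercise day 5. It was 534 to 739 CPM in Control day 10 and 1785 to 1976 CPM in Control day 5. Neither pair of ranges overlapped. In Exercise lesions 35 of the 39 members fell at an edgeR adjusted p under 0.05, where 4.9% of all tested genes fell and 5.17% rose. In Control lesions 38 of the 39 fell, where 6.64% of all tested genes fell and 5.66% rose. No member rose in either condition. The median log2 change of the 39 was -1.27 in Exercise and -1.69 in Control, against 0.01 for all tested genes in each. In Exercise the 4 day 10 libraries lay below the 4 day 5 libraries for 34 members, against 7.09% of all tested genes. In Control they did so for 37 members, against 10.7% of all tested genes.

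**Figure D2:**
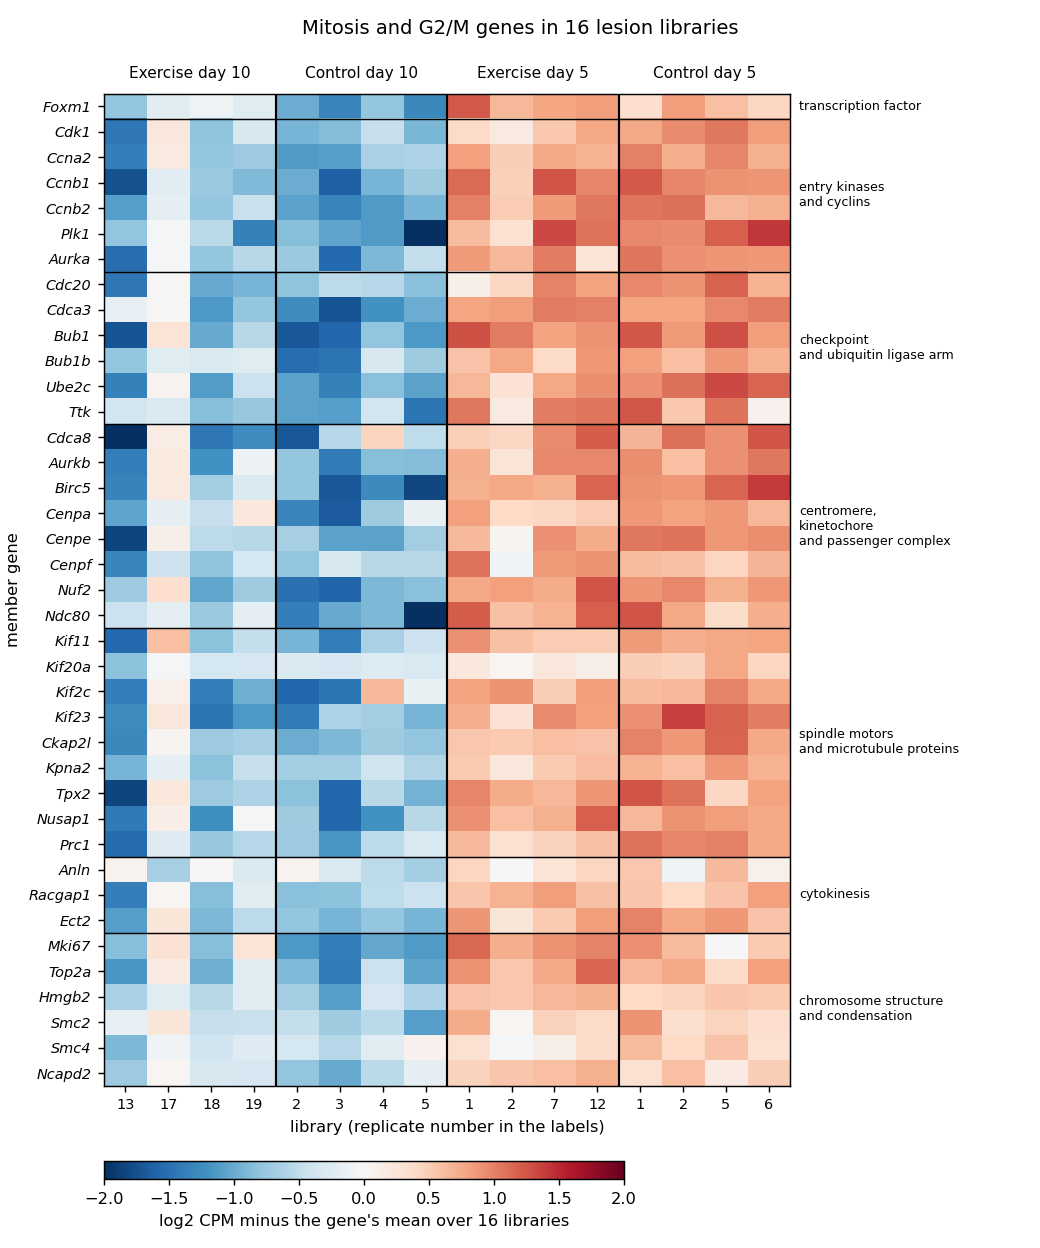
Level of each of the 39 members (rows, by role) in each of the 16 libraries (columns, by group and replicate number), as log2 CPM minus the gene's own mean over the 16 libraries; red is above and blue below that mean. The day 10 columns are blue for nearly every gene and the day 5 columns red, Exercise day 10 replicate 17 is paler than its neighbours, and Anln varies least between the days.

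Among the kinases and cyclins of mitotic entry, all 6 members (Cdk1, Ccna2, Ccnb1, Ccnb2, Plk1 and Aurka) fell in both conditions. Their log2 changes ran from -1.80 to -0.95 in Exercise and from -2.42 to -1.69 in Control. Ccnb2, which encodes cyclin B2, had 10.2, 19.4, 12.8 and 16.2 CPM in Exercise day 10 and 44.4, 31.4, 39.8 and 45.8 CPM in Exercise day 5. In Control it had 10.4, 8.73, 9.96 and 11.5 CPM at day 10 and 46.8, 47.4, 34.8 and 36.4 CPM at day 5. No day 10 library reached the lowest day 5 library of its condition. The log2 change was -1.46 ± 0.19 (SE, edgeR adjusted p = 0.000174) in Exercise and -2.02 ± 0.19 (SE, edgeR adjusted p = 2.18e-05) in Control. The largest change in Exercise belonged to Ccnb1, cyclin B1, at -1.80, and the largest of this role in Control to Plk1, the polo-like kinase, at -2.42. Cdk1 itself changed by -0.95 in Exercise, where replicate 17 at 42.2 CPM overlapped the lowest day 5 library at 40.8 CPM. Its Exercise call was lost without day 5 replicate 12 (edgeR adjusted p = 0.0538).

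Foxm1, the transcription factor that switches on many genes of this list, had 3.91, 5.86, 6.38 and 5.78 CPM in Exercise day 10 and 16.2, 10.9, 11.96 and 12.3 CPM in Exercise day 5. Control lesions had 3.34, 2.64, 3.91 and 2.70 CPM at day 10 and 8.67, 12.4, 10.5 and 9.16 CPM at day 5. The days did not overlap in either condition. That is a log2 change of -1.23 ± 0.21 (SE, edgeR adjusted p = 0.00149) in Exercise and -1.69 ± 0.22 (SE, edgeR adjusted p = 0.000124) in Control. Foxm1 overlaps 2 other annotated genes on its own strand, Tex52 and Gm44596, so its count is less certain.

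The arm of the checkpoint and the ubiquitin ligase fell in all 6 members, in both conditions. It holds the checkpoint kinases Bub1, Bub1b and Ttk, the ligase activator Cdc20, the ubiquitin-conjugating enzyme Ube2c and Cdca3, which helps to remove the Cdk1 inhibitor Wee1. Cdca3 had 11.6, 13.2, 5.76 and 7.51 CPM in Exercise day 10 and 22.7, 23.3, 26.9 and 26.4 CPM in Exercise day 5. It had 5.39, 3.82, 5.49 and 6.47 CPM in Control day 10 and 22.7, 22.5, 25.4 and 27.04 CPM in Control day 5. The days were far apart in Control, while Exercise replicates 13, 17 and 19 of day 10 lay above every Control library of that day. The log2 change of Cdca3 was -1.38 ± 0.22 (SE, edgeR adjusted p = 0.000674) in Exercise and -2.20 ± 0.22 (SE, edgeR adjusted p = 3.07e-05) in Control. Ube2c changed by -1.28 in Exercise and -2.21 in Control, and Bub1 by -1.61 in Exercise and -2.36 in Control.

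At the centromere and kinetochore 7 of 8 members fell in Exercise and all 8 in Control. The call of Cdca8 in Control (edgeR adjusted p = 0.033) held only without day 10 replicate 4 or day 5 replicate 1 when 1 library was left out in turn, and its call in Exercise (0.0156) was lost without day 10 replicate 19 (0.0518). Birc5 (survivin), Cdca8 (borealin) and Aurkb (Aurora B) belong to the chromosomal passenger complex, which corrects faulty attachments. Birc5 had 1.68, 5.17, 2.75 and 3.65 CPM in Exercise day 10 and 7.49, 7.86, 7.52 and 10.4 CPM in Exercise day 5. In Control it had 2.58, 1.27, 1.77 and 1.15 CPM at day 10 and 8.59, 8.41, 10.3 and 12.1 CPM at day 5. All day 10 libraries lay below the day 5 libraries, and the 4 lowest of the 8 day 10 values included 3 from Control. The log2 change was -1.33 ± 0.31 (SE, edgeR adjusted p = 0.00989) in Exercise and -2.53 ± 0.32 (SE, edgeR adjusted p = 0.000124) in Control. Nuf2 and Ndc80, the microtubule-binding pair of the kinetochore, both changed by -1.37 in Exercise, and by -2.07 and -2.21 in Control. Cenpa, the histone variant that marks the centromere, did not pass in Exercise (-0.86 ± 0.27 (SE, edgeR adjusted p = 0.0519)), although its day 10 and day 5 libraries did not overlap there. Cenpa passed without day 10 replicate 19 (edgeR adjusted p = 0.0279).

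Spindle motors and microtubule proteins fell in 8 of 9 members in each condition. Ckap2l, a protein of the mitotic spindle, had 23.7, 60.1, 35.2 and 36.5 CPM in Exercise day 10 and 84.9, 83.2, 88.3 and 86.6 CPM in Exercise day 5. It had 29.2, 31.1, 35.3 and 33.6 CPM in Control day 10 and 116, 106, 130.4 and 98.8 CPM in Control day 5. The Exercise day 5 libraries were tightly grouped and lay below all Control day 5 libraries. Its log2 change was -1.14 ± 0.19 (SE, edgeR adjusted p = 0.00105) in Exercise and -1.81 ± 0.19 (SE, edgeR adjusted p = 3.07e-05) in Control. The exception in Exercise was Kif11, a motor that pushes the spindle poles apart (-0.99 ± 0.31 (SE, edgeR adjusted p = 0.053)). It had 8.66, 39.2, 14.4 and 18.5 CPM in Exercise day 10 and 48.5, 38.5, 36.4 and 36.5 CPM in Exercise day 5, so that replicate 17 alone lay among the day 5 libraries. Without replicate 17 the change of Kif11 was -1.53 (edgeR adjusted p = 0.000478). The exception in Control was Kif2c, which removes tubulin from microtubule ends. It had 5.24, 5.73, 24.95 and 14.3 CPM in Control day 10 and 24.7, 25.2, 31.7 and 27.2 CPM in Control day 5, so that replicate 4 of day 10 lay among the day 5 libraries. Its log2 change was -1.55 ± 0.41 (SE, edgeR adjusted p = 0.0229) in Exercise and -1.12 ± 0.40 (SE, edgeR adjusted p = 0.0777) in Control. Without that Control library Kif2c passed in Control (-1.69, edgeR adjusted p = 0.00722), and when any 1 of day 10 replicates 13, 18 and 19 or day 5 replicate 2 of Exercise was left out it did not pass in Exercise (adjusted p up to 0.0658). Kif20a, a motor of the anaphase midzone, fell least of these 9, with log2 changes of -0.51 in Exercise and -0.85 in Control. It overlaps Cdc23 on the opposite strand, a gene of the anaphase-promoting complex whose log2 changes were -0.31 in Exercise (edgeR adjusted p = 0.0756) and -0.51 in Control (0.00485). The reads were counted by strand, and the share of Kif20a reads that could stem from Cdc23 was not tested.

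Of the 3 cytokinesis genes, Racgap1 and Ect2 fell in both conditions and Anln in Control. Ect2 activates the contractile ring. It had 10.4, 26.6, 11.97 and 15.6 CPM in Exercise day 10 and 41.6, 26.7, 32.6 and 40.3 CPM in Exercise day 5. In Control it had 13.2, 11.8, 13.1 and 11.8 CPM at day 10 and 45.3, 38.6, 41.5 and 33.7 CPM at day 5. The Control day 10 libraries lay close together, while Exercise replicate 17 of day 10 came just under the lowest Exercise day 5 library. The change of Ect2 on the log2 scale was -1.13 ± 0.23 (SE, edgeR adjusted p = 0.00405) in Exercise and -1.67 ± 0.23 (SE, edgeR adjusted p = 0.000179) in Control. Anln encodes anillin, a scaffold of the contractile ring that myelinating oligodendrocytes of the mouse also express. It had 43.7, 26.1, 42.03 and 33.99 CPM in Exercise day 10 and 55.8, 41.2, 50.05 and 56.1 CPM in Exercise day 5. In Control it had 43.8, 33.9, 28.8 and 25.9 CPM at day 10 and 60.3, 38.6, 65.1 and 44.4 CPM at day 5. The days overlapped in both conditions. Its log2 change was -0.48 ± 0.20 (SE, edgeR adjusted p = 0.133) in Exercise and -0.65 ± 0.20 (SE, edgeR adjusted p = 0.0371) in Control, the smallest of the 39 in each. The Control call was lost when any 1 of day 10 replicates 3, 4 and 5 or day 5 replicates 1 and 5 was left out, where the edgeR adjusted p of Anln ran up to 0.109, and with a replicate block. It was also the single member whose lowest Exercise day 10 value came from replicate 17, the library with the lowest summed markers of mature oligodendrocytes in its group. The part of those markers in the Anln level was not tested.

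For chromosome structure and condensation, 5 of 6 members fell in Exercise and all 6 in Control. Hmgb2, a DNA-bending chromatin protein, had 18.7, 24.9, 19.95 and 25.4 CPM in Exercise day 10 and 43.9, 42.7, 46.4 and 48.1 CPM in Exercise day 5. It had 18.2, 13.5, 23.2 and 19.1 CPM in Control day 10 and 38.6, 39.9, 43.1 and 42.1 CPM in Control day 5. The days stood clearly apart, and in each condition the spread between libraries was smaller at day 5 than at day 10. On the log2 scale Hmgb2 changed by -1.03 ± 0.15 (SE, edgeR adjusted p = 0.000366) in Exercise and -1.15 ± 0.15 (SE, edgeR adjusted p = 0.000124) in Control. Mki67, the protein that coats mitotic chromosomes, had 16.2, 35.9, 16.2 and 35.2 CPM in Exercise day 10 and 65.7, 49.03, 54.97 and 58.5 CPM in Exercise day 5. In Control it had 13.1, 11.4, 14.3 and 13.3 CPM at day 10 and 55.6, 45.9, 29.3 and 42.5 CPM at day 5. The Exercise day 10 libraries split into 2 near 16 CPM and 2 near 35 CPM. Its log2 change was -1.14 ± 0.24 (SE, edgeR adjusted p = 0.00605) in Exercise and -1.73 ± 0.25 (SE, edgeR adjusted p = 0.000293) in Control. Smc2 and Smc4 form the core of condensin. Smc2 did not pass in Exercise (-0.61 ± 0.20 (SE, edgeR adjusted p = 0.0568)), and Smc4 fell in both, with log2 changes of -0.58 there and -0.73 in Control. The Exercise call of Smc4 (edgeR adjusted p = 0.0322) was lost when any 1 of day 5 replicates 1, 7 and 12 or day 10 replicates 13, 18 and 19 was left out, and its adjusted p ran from 0.012 to 0.0841 with 1 library left out. Smc2 passed without day 10 replicate 17 (-0.78, edgeR adjusted p = 0.0153) and without day 5 replicate 2.

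**Figure D3:**
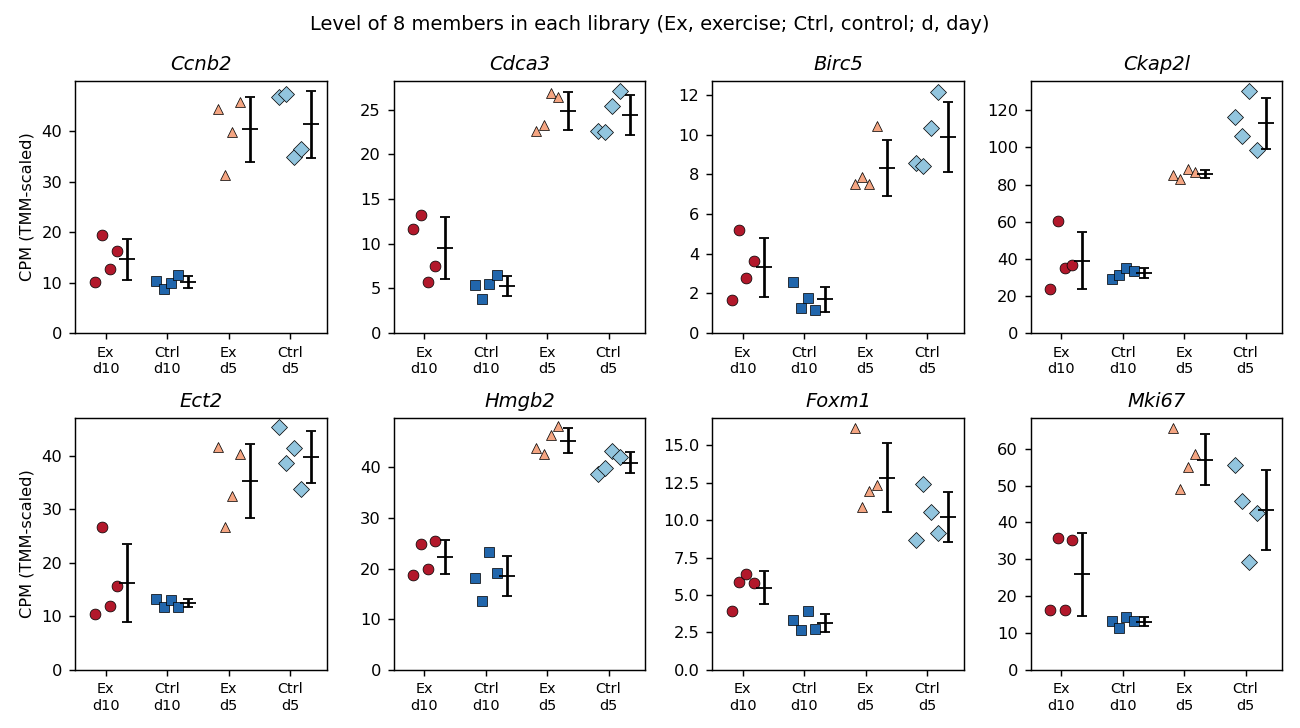
TMM-scaled CPM of 8 members in each library, with 4 libraries per group in replicate order; the bar beside each group is the mean and SD. In every panel both day 10 groups lie below both day 5 groups in mean level, and for Mki67 the Exercise day 10 libraries run from 16.2 to 35.9 CPM against 11.4 to 14.3 CPM in Control day 10.

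**Figure D4:**
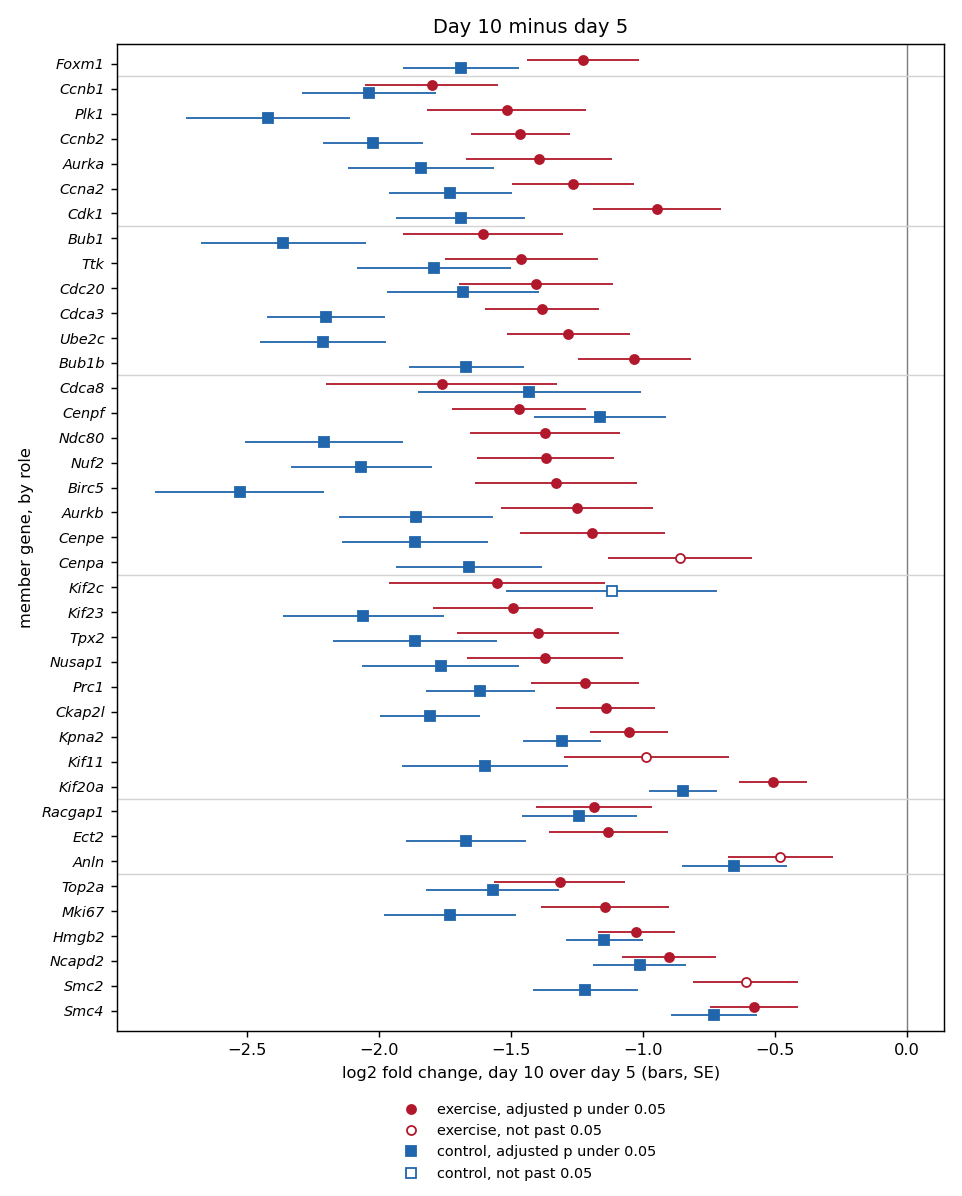
Log2 fold change of day 10 over day 5 with its SE for the 39 members, by role, in Exercise (circles) and Control (squares); filled symbols had an edgeR adjusted p under 0.05. Every symbol lies left of 0, and the open ones are Cenpa, Kif11, Smc2 and Anln in Exercise and Kif2c in Control.

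Without Exercise day 10 replicate 17, 37 members fell in Exercise at an edgeR adjusted p under 0.05 and the median log2 change was -1.56. In the fit with all libraries 4.9% of all tested genes fell in Exercise at that threshold. Cenpa and Anln were then the members that did not pass. At an unadjusted p under 0.05 there were 38 members, all lower, where 26.7% of the 15414 genes tested had such a p. The contrast within Control does not use the group of that library, but the library entered the estimate of spread shared by all groups. With the Control groups fitted alone, Kif2c was the member that did not pass.

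The day 10 libraries also differed from day 5 in cell type markers. Of 9 markers of monocyte-derived macrophages, 6 fell in Exercise and 5 in Control. They summed to 5371 to 8011 CPM in Exercise day 10 and 8324 to 14270 CPM in Exercise day 5, and to 6354 to 7342 CPM in Control day 10 and 7905 to 14410 CPM in Control day 5. Of 10 markers of mature oligodendrocytes, 3 rose in Exercise and 7 in Control. Their sums were 12350 to 28470 CPM in Exercise day 10 and 12390 to 17460 CPM in Exercise day 5. In Control they were 24670 to 27760 CPM at day 10 and 11200 to 15360 CPM at day 5. Of 8 microglial markers, 5 rose in Exercise and 3 in Control. The summed microglial level was 6535 to 13970 CPM in Exercise day 10 and 6194 to 8466 CPM in Exercise day 5, and 6042 to 8342 CPM in Control day 10 and 7432 to 10000 CPM in Control day 5. Of 8 markers of oligodendrocyte precursors, 1 rose in each condition. Precursor markers summed to 899 to 1249 CPM in Exercise day 10 and 856 to 1049 CPM in Exercise day 5, and to 1104 to 1341 CPM in Control day 10 and 973 to 1101 CPM in Control day 5. No marker of these 4 cell types was at 0 in any library. Of 7 astrocyte markers, 2 rose in Exercise and 4 in Control. Astrocyte sums were 4773 to 6889 CPM in Exercise day 10 and 3759 to 6442 CPM in Exercise day 5, and 6329 to 7673 CPM in Control day 10 and 3165 to 5848 CPM in Control day 5. Of 7 endothelial markers, 4 fell in Exercise, with a median log2 change of -0.79 over the 7, and none passed in Control, where the median was -0.10. Their sums overlapped between the days, at 120.9 to 224.1 CPM in Exercise day 10 and 147.4 to 181 CPM in Exercise day 5. Of 7 neuronal markers, 2 fell in Exercise and 1 in Control. None of 6 markers of fibroblasts and meninges or 5 of Schwann cells passed in either condition. Of 6 lymphocyte markers 1 had enough counts to be tested, and the 6 summed to at most 6.47 CPM in any library. Of 3 neutrophil markers tested, 1 rose in each condition, and the other 2 were lower in Exercise without passing. The 5 listed summed to 177.6 to 193.8 CPM in Exercise day 10 and 73.6 to 90.1 CPM in Exercise day 5. In Control they summed to 126.8 to 190.5 CPM at day 10 and 61.5 to 97.5 CPM at day 5. Neither of 2 ependymal markers tested passed in either condition. A sum follows its most abundant genes and need not move with the rest of its list. The 8 microglial markers had a median log2 change of 0.66 in Control, although both ends of their summed range were lower at day 10. The 3 neutrophil markers tested had a median of -2.1 in Exercise, although their list had a higher sum at day 10. The part of these cell types in the fall of the mitotic genes was not tested.

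Other genes of the cycle were counted from lists. Of 88 other mitotic genes tested, 46 fell in Exercise (median log2 change -1.07) and 64 fell in Control (median -1.40), and none rose in either. The 3 with the smallest p in Exercise were Ncapg2 (-1.12), a subunit of condensin II, the chromosome motor Kif4 (-1.56) and the spindle pole protein Aspm (-1.35). In Control they were the Cdk1-binding protein Cks1b (-1.87), the kinetochore protein Spc25 (-1.76) and Aspm (-1.74). Only 3 of the 88 had a positive change in each condition and none of these passed, among them Mybl2, which encodes B-Myb, at 1.21 in Exercise (edgeR adjusted p = 0.412). The others were Cenpp and Lin54 in Exercise, at 0.17 and 0.06, and Depdc1b, Fzr1 and Pkmyt1 in Control, at 0.11, 0.08 and 0.10. Of 21 genes of DNA replication, the step before mitosis, 11 fell in Exercise and 18 in Control.

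The 12 subunits of the anaphase-promoting complex were counted beside its activator Cdc20. None of the 12 passed in Exercise (median log2 change -0.08), and 3 fell in Control (median -0.13), which were Anapc5 (-0.37), Cdc23 (-0.51) and Cdc27 (-0.60). Cdc20 changed by -1.40 in Exercise and -1.68 in Control. Brakes of the cycle, such as inhibitors of cyclin-dependent kinases and members of the retinoblastoma family, moved in both directions. Of 14 tested, Btg2 (0.89) and Ccng2 (0.51) rose in Exercise and Cdkn2d (-0.65) fell. In Control Btg2 (0.85), Rbl2 (0.44) and Gas1 (0.85) rose, and Cdkn2d (-0.75) and Rbl1 (-0.55) fell. Cdkn1a, the p21 inhibitor, did not pass in Exercise (0.10, edgeR adjusted p = 0.509) or in Control (-0.36, 0.123).

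Exercise was compared with Control at each day to ask whether running changed the level of these genes. At day 10 none of the 39 passed with edgeR, where 0.192% of all tested genes did. The log2 difference was positive for 32 members and negative for 7, with a median of 0.36 against 0.01 for all tested genes. At an unadjusted p under 0.05 there were 10 members, all higher in Exercise, where 12.8% of all tested genes had such a p and 7.25% had it and were higher. Without replicate 17 there were 7, of which 5 were higher and 2, Cdca8 and Kif2c, were lower in Exercise, where 10.5% of all tested genes had such a p. All Exercise day 10 libraries lay above all Control day 10 libraries for 4 members (Mki67, Foxm1, Ndc80 and Smc2), where 3.3% of all tested genes did. None had them all below, where 2.58% of all tested genes did. Without replicate 17 the signs were 21 positive and 18 negative and the median was 0.15.

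Among the members, Mki67 had the smallest p of the day 10 comparison. It averaged 25.9 ± 11.2 CPM in Exercise day 10 and 13.04 ± 1.24 CPM in Control day 10 (SD, n = 4 libraries each). The highest Control value, 14.3 CPM, lay below the lowest Exercise value, 16.2 CPM. The log2 difference was 0.99 ± 0.25 (SE, edgeR adjusted p = 0.12). Without replicate 17 it was 0.79 (edgeR adjusted p = 0.258), and over all alternatives the adjusted p ran from 0.0146 to 0.297. Mki67 passed with DESeq2 (0.0146) and, in edgeR, without Exercise day 10 replicate 18 (1.15, adjusted p = 0.0377).

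Cdca3 averaged 9.52 ± 3.46 CPM in Exercise day 10 and 5.29 ± 1.096 CPM in Control day 10 (SD, n = 4 libraries each), and the groups overlapped. Its log2 difference was 0.84 ± 0.22 (SE, edgeR adjusted p = 0.139), 0.65 without replicate 17 (adjusted p = 0.309). Cdca3 likewise passed with DESeq2 (0.0278) and without Exercise day 10 replicate 18 in edgeR (1.02, adjusted p = 0.0331), and its adjusted p ran from 0.0278 to 0.364 over all alternatives. Foxm1 averaged 5.48 ± 1.08 CPM in Exercise day 10 and 3.15 ± 0.600 CPM in Control day 10. The lowest Exercise library and the highest Control library both stood at 3.91 CPM, so the groups were separate by less than this rounding shows. Its log2 difference was 0.80 ± 0.22 (SE, edgeR adjusted p = 0.155), and 0.77 without replicate 17 (adjusted p = 0.258).

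The other members given in full did not pass at day 10 either. Birc5 differed by 0.95 ± 0.33 (SE, edgeR adjusted p = 0.235), Ccnb2 by 0.52 ± 0.19 (SE, edgeR adjusted p = 0.27) and Ect2 by 0.37 ± 0.23 (SE, edgeR adjusted p = 0.519). Ckap2l differed by 0.27 ± 0.19 (SE, edgeR adjusted p = 0.581) and Hmgb2 by 0.27 ± 0.15 (SE, edgeR adjusted p = 0.462). Without replicate 17 Birc5 was at 0.66, Ccnb2 at 0.36, Ect2 at 0.02, Ckap2l at -0.02 and Hmgb2 at 0.21. Among the negative members Cdca8 had the smallest p. It had 1.58, 8.30, 2.66 and 3.04 CPM in Exercise day 10 and 2.20, 5.00, 10.2 and 5.24 CPM in Control day 10. Here replicate 17 was the highest Exercise library, and the other 3 lay between 1.58 and 3.04 CPM. The log2 difference was -0.54 ± 0.44 (SE, edgeR adjusted p = 0.643), and -1.21 without replicate 17 (adjusted p = 0.288). In the authors' deposited table for day 10, which lacks replicate 17, none of the 39 passed, where 179 of its 19985 genes did. The log2 fold changes of the 39 there were 21 positive and 18 negative, with a median of 0.14.

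At day 5 none of the 39 members passed with edgeR, where 0% of all tested genes did, and 3 had an unadjusted p under 0.05, where 10% of all tested genes did. The log2 difference was negative for 27 members and positive for 12, with a median of -0.10. All Exercise day 5 libraries lay below all Control day 5 libraries for the same 3 members, Kif20a, Prc1 and Ckap2l, where 3.97% of all tested genes did. None had them all above, where 3.33% of all tested genes did. Prc1 cross-links microtubules of the anaphase midzone, where Kif20a works as a motor, and Ckap2l is a protein of the spindle. Over all 9 spindle motors and microtubule proteins the log2 difference ran from -0.46 to 0.08, and none passed.

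Kif20a had 98.6, 88.4, 99.9 and 92.8 CPM in Exercise day 5 and 121, 118, 146 and 115 CPM in Control day 5. Its log2 difference was -0.40 ± 0.13 (SE, edgeR adjusted p = 0.358), and that of Cdc23 on the opposite strand was -0.29 (adjusted p = 0.412). Prc1, which overlaps Rccd1 on the opposite strand, had 231, 182, 202 and 222 CPM in Exercise day 5 and 312, 290.1, 296 and 252 CPM in Control day 5. The log2 difference of Prc1 was -0.46 ± 0.20 (SE, edgeR adjusted p = 0.466). Ckap2l, which overlaps the antisense gene Gm14024 on the opposite strand, differed by -0.40 ± 0.18 (SE, edgeR adjusted p = 0.484). The per-library values of Ckap2l are given above. In the authors' deposited table for day 5 these 3 members passed and no other member did, where 271 of its 19985 genes passed. The authors' log2 fold changes and adjusted p-values were -0.40 and 0.0243 for Kif20a, -0.46 and 0.0072 for Prc1 and -0.40 and 0.0259 for Ckap2l. With all 16 libraries fitted together, DESeq2 and limma-voom called no member at day 5, and neither was fitted to the day 5 libraries alone. Since depth and the mt-Rnr2 share also separated the day 5 groups, their part and that of housing cannot be told apart.

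Of the other members given in full, Mki67 and Foxm1 had the highest positive differences at day 5, at 0.40 ± 0.24 (SE, edgeR adjusted p = 0.593) and 0.34 ± 0.21 (SE, edgeR adjusted p = 0.603). Hmgb2 differed by 0.14, Cdca3 by 0.03, Ccnb2 by -0.03, Ect2 by -0.17 and Birc5 by -0.25 on the log2 scale. The lowest library of the day was Exercise day 5 replicate 2, which was also the shallowest, and it was the lowest of its group for 27 members. Without it the median difference of the 39 was -0.07.

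**Figure D5:**
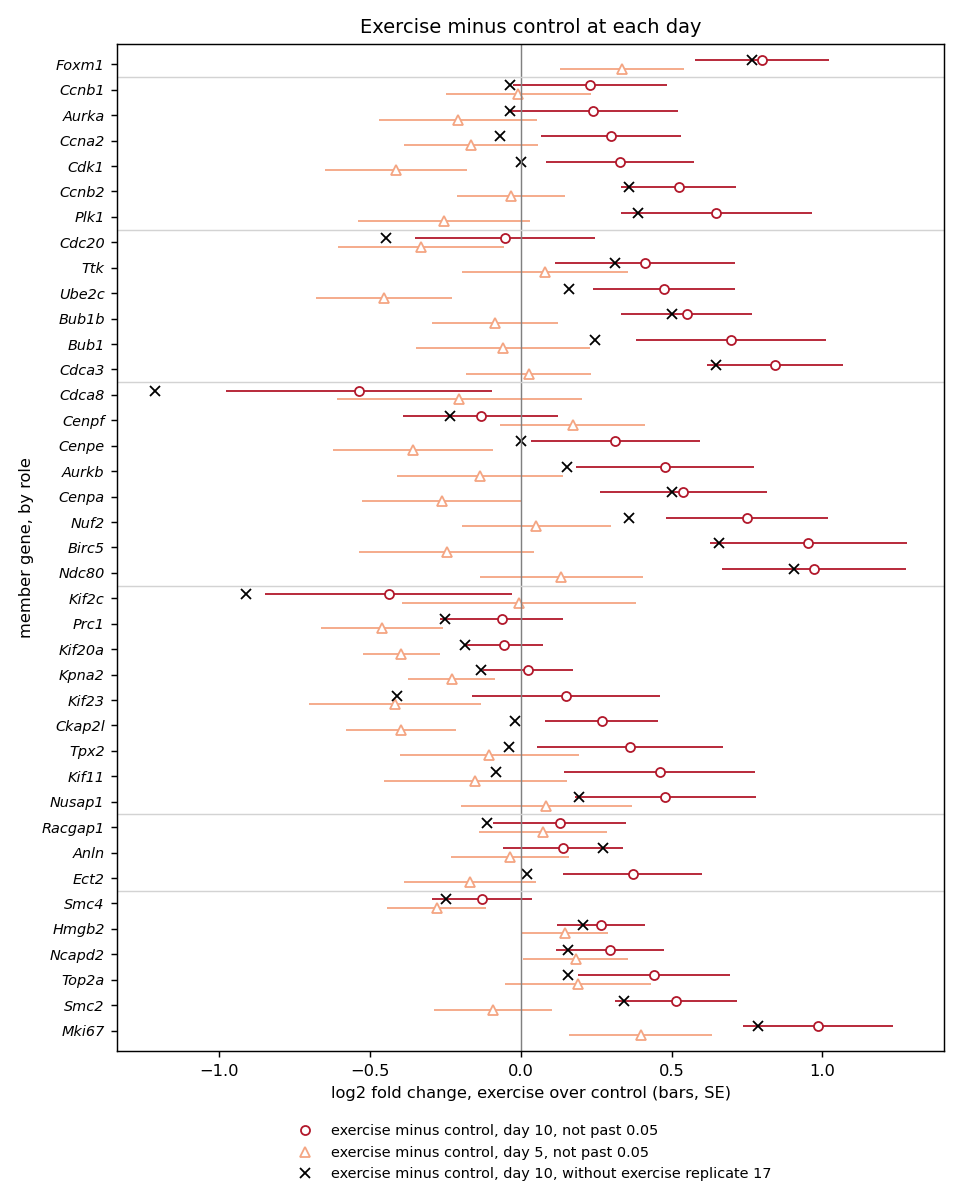
Log2 fold change of Exercise over Control with its SE for the 39 members, by role, at day 10 (circles) and day 5 (triangles); crosses give the day 10 value without Exercise day 10 replicate 17, and open symbols did not pass an edgeR adjusted p of 0.05. No member passed at either day, 32 day 10 circles and 21 crosses lie right of 0, and 27 day 5 triangles lie left of it.

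The difference between the Exercise effects of the 2 days, which is also the difference between the falls in Exercise and in Control, was tested in the same fit. No member passed, where 0% of all tested genes did, and 9 had an unadjusted p under 0.05, where 9.11% of all tested genes did. Without Exercise day 10 replicate 17 it was 3 members, where 6.73% of all tested genes did. DESeq2 and limma-voom also called none. The difference was positive for 36 members and negative for 3, with a median of 0.47, and for 31 and 8 with a median of 0.22 without replicate 17. Among the members, Ube2c had the smallest p. It had 19.1, 51.1, 22.3 and 36.2 CPM in Exercise day 10 and 23.2, 18.9, 27.4 and 23.1 CPM in Control day 10. At day 5 it had 77.4, 59.4, 83.2 and 92.7 CPM in Exercise and 92.2, 105, 122 and 110 CPM in Control. Its Exercise libraries thus lay partly below Control at day 5 and partly above it at day 10. The difference was 0.93 ± 0.33 (SE, edgeR adjusted p = 0.504). Birc5 had the largest value, 1.199 ± 0.44 (SE, edgeR adjusted p = 0.504), Cdca3 had 0.82 ± 0.31 (SE, edgeR adjusted p = 0.504) and Ckap2l 0.67 ± 0.26 (SE, edgeR adjusted p = 0.512). Ccnb2 (0.56), Mki67 (0.59), Ect2 (0.54), Foxm1 (0.46) and Hmgb2 (0.12) were positive and did not pass. Without replicate 17 the difference was 0.62 for Ube2c, 0.91 for Birc5, 0.63 for Cdca3, 0.38 for Ckap2l, 0.40 for Ccnb2, 0.40 for Mki67, 0.20 for Ect2, 0.44 for Foxm1 and 0.07 for Hmgb2. Cenpf, a large kinetochore protein, had the smallest p of the negative ones (-0.31 ± 0.35 (SE, edgeR adjusted p = 0.811)).

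Levels of different members were compared as mean CPM per kilobase of annotated gene length. That scale assumes even coverage along each gene, which was not examined in this amplified, poly(A)-selected RNA. In Control day 5 the highest were Ube2c at 41.3, Ckap2l at 36.01, Prc1 at 34.97, Kif20a at 32.95 and Ccnb2 at 26.8 CPM per kilobase. The lowest were Cenpf at 0.682 and Foxm1 at 1.85. At day 10 the order changed at the top. Kif20a then led with 17.6 in Exercise day 10 and 18.3 in Control day 10. Anln stood in Control day 5 at 9.61 CPM per kilobase, close to Kif11 at 9.22. By day 10 Anln was at 6.72 in Exercise and 6.10 in Control, and Kif11 was at 4.19 in Exercise and 3.04 in Control. Some counts are less certain than others. Ccnb1, Ccnb2 and Kpna2 have annotated pseudogenes that could take or give reads. Ccna2, Cdc20, Cdca8, Nusap1 and Ube2c overlap a protein-coding neighbour on the opposite strand, as do Kif20a and Prc1.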

How the data were processed

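Per the labels' protocols, RNA from laser-microdissected frozen cord was amplified, poly(A)-selected and read in 1 direction (75 nt, strand-specific). Quality control used FastQC 0.11.4, and alignment to GRCm38 used Bowtie 1.1.2 under TopHat2 2.0.10, per the submitters' processing notes. The authors deposited raw counts per Ensembl gene, and per the file headers these were made by featureCounts 1.5.0-p1 in its sense-strand mode. Their deposited tables compare Exercise with Control at each day by log2 fold change, SE, p-value and adjusted p. The notes name DESeq2 1.12.4, and the day 10 table lacks Exercise replicate 17.

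Tests on these counts used edgeR 4.0.16 (R 4.3.3). After filterByExpr (minimum count 10, minimum total count 15) and TMM scaling, the robust quasi-likelihood fit took all 16 libraries with a mean for each group (12 residual degrees of freedom). Adjusted p-values are Benjamini-Hochberg over 15096 genes, with a threshold of 0.05. Tests are two-sided. The script was tested on simulated data. Symbols came from the GRCm38 annotation, which named 45143 of the 46078 IDs, and 257 of the 262 symbols of the lists had a row. No 2 libraries had identical counts.

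Alternatives were DESeq2 size factors in edgeR, DESeq2 1.42.0, limma-voom (limma 3.58.1), no filter, each library left out, only the compared groups, and a replicate block. The members and lists were chosen with earlier results of these data known. Values per library are given for the member of each role with the smallest p for the day effect in Control, for Mki67, and in the other comparisons for the member with the smallest p in each direction. Kif2c, Anln, Prc1 and other members were named after their values were seen. Total counts per library ranged from 8.13 to 13.9 M, and sampling error is largest for members with few counts.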

Additional observations from a re-analysis of the deposited data

Results flagged for a closer look

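Each member was examined in each group of 4 libraries, and 1 library was far from the other 3 for 7 of the 156 combinations. Chance gives about 1 in 20, so the flags were no more frequent than chance gives. Kif23 had 11.5 CPM in Exercise day 10 replicate 17, against 3.46 to 4.36 CPM in the other 3 libraries of its group. Nuf2 had 13.4 CPM in the same library, against 5.05 to 6.39 CPM. Bub1b had 19.6 CPM in Exercise day 10 replicate 13, against 27.3 to 28.4 CPM. Cdk1 had 26.1 CPM in Control day 10 replicate 4, against 18.8 to 19.6 CPM. In Exercise day 5 replicate 12, Birc5 had 10.4 CPM, against 7.49 to 7.86 CPM, and Nuf2 had 25.6 CPM, against 17.8 to 18.9 CPM. Ttk had 9.25 CPM in Exercise day 5 replicate 2, the shallowest library, against 16.8 to 17.4 CPM. None of these members was called between Exercise and Control at either day.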

How the results depend on the processing

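The count of members lower at day 10 stayed between 34 and 39 in Exercise and Control under DESeq2 size factors, DESeq2, limma-voom and no filter. With 1 library left out in turn it ran from 33 to 37 in Exercise and from 36 to 38 in Control. In the fit with all libraries 4.9% of all tested genes fell in Exercise and 6.64% in Control. With the compared groups fitted alone it was 30 in Exercise, where Cdk1, Aurkb, Cenpe, Kif20a and Smc4 also lost their calls, and 38 in Control. Between Exercise and Control the count stayed at 0 at day 5 and for the difference between the days under every alternative run. At day 10 it was 2 with DESeq2 (Mki67 and Cdca3) and ran from 0 to 2 with 1 library left out, the 2 being the same genes without Exercise replicate 18. Over all genes, day 10 calls were 29 with edgeR and 227 with DESeq2, 32 with limma-voom, and 0 to 133 with 1 library left out. No change in direction was found for a called value, and no scaling moved the median of all genes by over 0.1. Libraries with the same replicate number did not deviate together (correlations 0.06 and 0.02 in Control across days, 0.07 and -0.03 at day 5), so the numbers are not known to pair them. With a replicate block on the 2 shared numbers the Control count was 35, with 561 genes called in all against 1858, and the day 5 count was 0. No paired analysis was possible at day 10 or within Exercise, because the groups share no number.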
